A study of Mus musculus with 4 samples.

Results

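The SOX genes encode transcription factors with an HMG box, and the genes examined here form the D and E groups of the family: Sox5, Sox6 and Sox13 (SOXD) and Sox8, Sox9 and Sox10 (SOXE). These 6 of the 21938 protein-coding genes of the GENCODE M21 annotation were taken by name. Every peak of Foxr2 CUT&RUN that touched one of the gene bodies or the 100 kb on either side was assigned to that gene. This gave 117 of the 31909 peaks of replicate 1 and 127 of the 38580 peaks of replicate 2. The V5 control lists held 308 and 124 peaks, and 0 of them lay in any of the 6 regions.

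SOXE proteins bind DNA and activate transcription, and they act in gliogenesis, the neural crest and cartilage. In the brain Sox9 is needed for the switch of neural progenitors to glia, Sox10 drives oligodendrocyte differentiation and myelin genes, and Sox8 overlaps with both in the oligodendrocyte lineage. SOXD proteins carry a coiled coil through which they pair and no transactivation domain of their own, so that their effect depends on partners. Sox5 and Sox6 cooperate with Sox9 in cartilage and restrain the terminal differentiation driven by Sox10 in oligodendrocyte precursors, and Sox6 is also required in cortical interneurons born in the medial ganglionic eminence.

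All 4 libraries came from C57BL/6J mouse cell lines derived from in utero electroporation (IUE) models, and all were made with an antibody against the V5 tag. The Foxr2 p53LOF libraries came from a single line, which carried a piggyBac FOXR2 transgene with a C-terminal V5 tag under the ubiquitous CAG promoter, together with a CRISPR vector against Trp53, so the FOXR2 measured was overexpressed rather than endogenous. The V5 control had the genotype H3.3G34R and no tag, so the tag, the FOXR2 transgene and the line cannot be told apart between the groups. Each group had 2 replicates, nothing states that replicates came from separate cultures, and their spread may be technical. Peak positions carry no expression, so the cell type was not checked against markers, and a fold does not separate more cells bound from more binding per cell.

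Peaks were compared through their fold enrichment, the fragments at the summit over the background of the same library. A fold above 6, the minimum used in the methods, needed 13 fragments in replicate 1 and 18 in replicate 2. With that minimum, the 6 regions kept 45 peaks in replicate 1 and 43 in replicate 2, and the controls kept 0. The mean number of peaks per library before the minimum was 122 in the Foxr2 p53LOF line and 0 in the control (exact permutation test, two-sided, p = 0.333, the smallest p that 2 against 2 libraries allow). The control lists were sparse everywhere, and the nearest control peak to any of these genes lay 2048 kb from Sox8. Of the 45 peaks above the minimum in replicate 1, 38 met a peak above the minimum in replicate 2, 7 met only a weaker one and 0 met none. Of the 43 in replicate 2, these numbers were 34, 7 and 2.

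A reproducible site was defined as a stretch covered by peaks of both replicates. There were 95 such sites in the 6 regions and 38 (40.0%) with a fold above 6 in both replicates, unequally divided among the genes. Genome-wide, 12131 sites passed the minimum and 24765 were found without it (49.0%). Sox5 had 23 sites before and 6 after the minimum, Sox6 27 and 14, and Sox13 7 and 2. Among the SOXE genes, Sox10 had 28 before and 13 after the minimum, against 7 and 1 for Sox8 and 3 and 2 for Sox9. The Sox6 and Sox10 regions therefore held 27 of the 38 sites. The Sox10 count depended on the size of the region, with 7 sites within 50 kb and 2 within 10 kb on either side, whereas Sox6 kept 12 and Sox5 6 at both sizes.

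Of the 38 sites, 6 lay within 1 kb of a protein-coding transcript start of the SOX gene itself (promoter sites), 7 at the start of another gene and 25 at neither (distal sites). The distal sites were mostly intronic, with 14 in an intron of the SOX gene, 9 between genes, 1 in an intron of another gene and 1 in an untranslated exon. Of these 25, 5 touched the start of a noncoding transcript. Some stretches shared a peak with their neighbour, and counting those once left 34 sites, 22 of them distal. All distal stretches lost in this way were at Sox6.

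**Figure D1:**
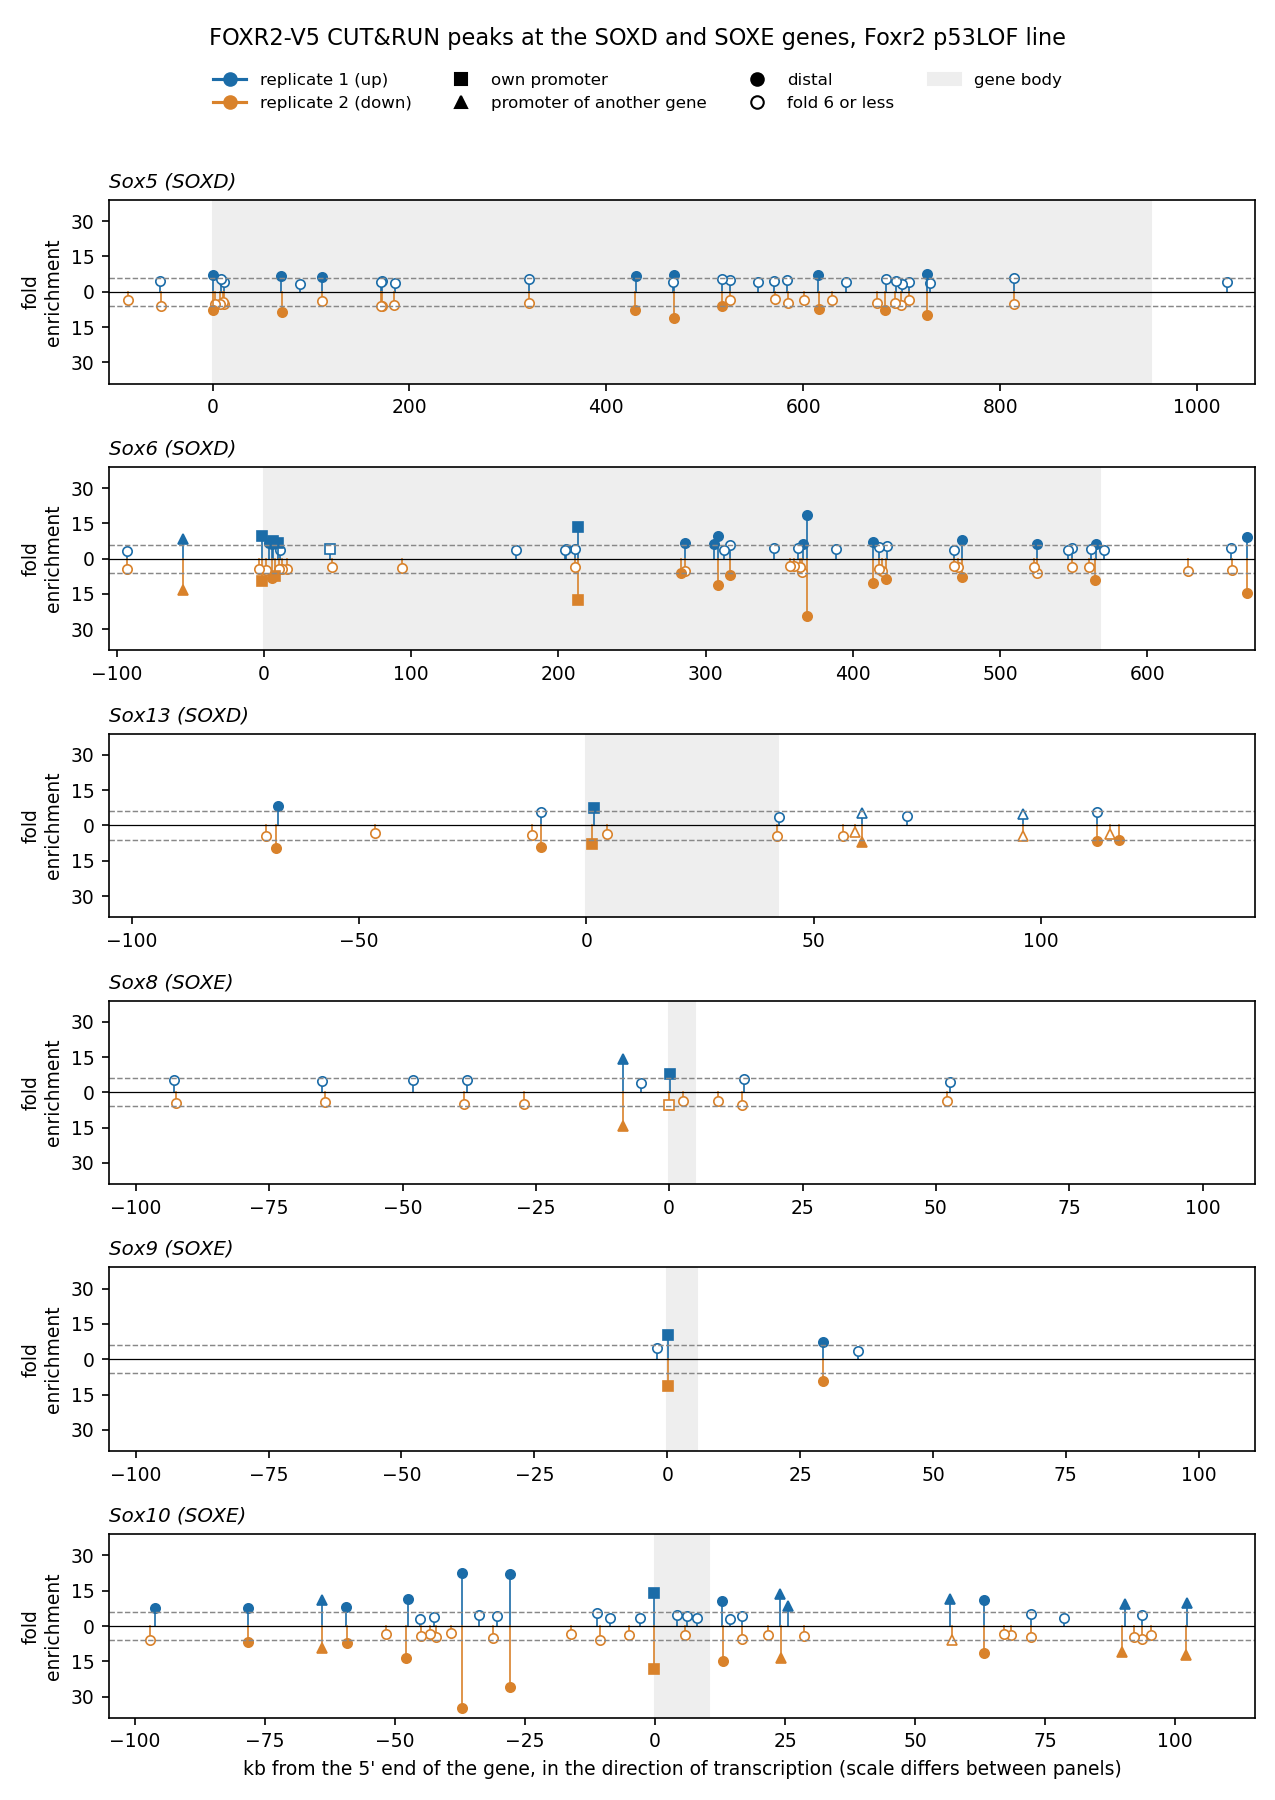
Peaks of replicate 1 (upward) and replicate 2 (downward) in the 6 regions, by kb from the 5′ end of each gene (x axis) and fold enrichment (y axis), with squares at the gene's own starts, triangles at starts of other genes, circles elsewhere, open symbols at a fold of 6 or less and dashed lines at 6. The tallest peaks are those 27.8 and 37.1 kb upstream of Sox10 and 369 kb into Sox6, whereas no Sox5 peak exceeds 11.2.

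At the promoters, 5 of the 6 genes had a site in both replicates before the minimum, beside 51% of all protein-coding genes. With the minimum 4 of 6 did (Sox6, Sox13, Sox9 and Sox10), beside 39.6% of all genes. For distal sites within 100 kb, the counts were 6 of 6 genes before the minimum, beside 61.1% of all genes, and 5 of 6 after it, beside 34.6%. The gene without a distal site after the minimum was Sox8. Gene length bears on these shares, since a longer gene offers more sequence. Of the 230 protein-coding genes of 500 kb or more, a class that holds Sox5 and Sox6, 49.6% had a distal site, compared with 32.5% of those of 50 kb or less, which hold the other 4.

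Sox10 had the strongest promoter site. Its fold was 14.1 in replicate 1 and 18.1 in replicate 2, with 95% Poisson counting intervals of 9.75 to 19.9 and 13.7 to 23.5. The best site at a start of Sox6 had 13.3 and 17.4, and the site at the start of Sox9 had 10.2 and 11.5. Among the 8692 genes with a promoter site above the minimum, the lower of each pair of folds stood at the 76.5th percentile for Sox10, the 72.5th for Sox6 and the 50.9th for Sox9. The median of these genes was 10.2, so Sox9 stood near the middle and Sox10 and Sox6 in the upper part.

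Sox13 and Sox8 had the weakest promoter sites of the 5 genes with one. Sox13 had folds of 7.51 and 7.88, at the 20.1st percentile. Sox8 had 7.95 in replicate 1 and 5.59 in replicate 2, so it failed the minimum only in replicate 2, and its counting intervals of 4.82 to 12.5 and 3.33 to 8.86 spanned 6 in both. Neighbours in this order overlapped in their intervals. In replicate 2 the intervals of Sox10 (13.7 to 23.5) and Sox6 (13.1 to 22.7) lay above that of Sox13 (5.12 to 11.7), whereas in replicate 1 all promoter sites above the minimum overlapped.

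**Figure D2:**
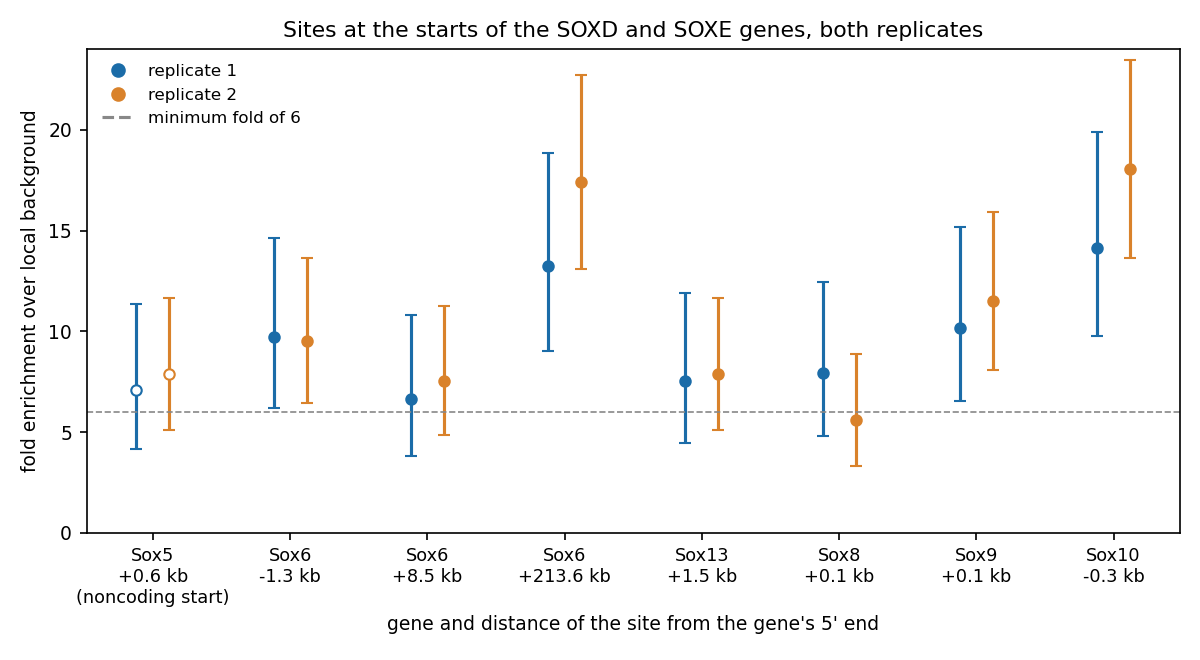
Fold enrichment (y axis, from 0) of each reproducible site at a start of the 6 genes, with replicate 1 in blue, replicate 2 in orange, bars for 95% Poisson counting intervals and a dashed line at 6. Open symbols mark the site at the noncoding 5′ end of Sox5. Sox10 and the Sox6 site 213.6 kb into the gene are the highest, and Sox8 in replicate 2 is the only point below the line.

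Sox5 was the one gene without a promoter site. No peak of either replicate lay within 1 kb of its protein-coding starts, although 29 peaks in each replicate fell in its region. Its annotated 5′ end belongs to a noncoding transcript, and a site there had folds of 7.07 and 7.88. When the 5′ end of the gene was used in place of protein-coding starts, Sox5 joined the genes with a promoter site and the count rose to 5 of 6.

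All 6 Sox5 sites above the minimum lay in its introns, spread from 0.622 to 725 kb downstream of the 5′ end. Their lower folds ran from 6.63 to 7.51, between the 26.1st and 45.0th percentiles of all 4250 distal sites, and none was above 10 in both replicates. The site with the highest lower fold (7.51 and 9.86) was 725 kb into the gene. The site with the highest single fold (7.07 and 11.2) was 469 kb into it. Of the 17 Sox5 sites lost to the minimum, 16 were intronic as well and 1 lay 52.9 kb upstream. The sequence around the summits of the site with the highest lower fold is shown first, from chr6:144056598-144056797 of GRCm38 (mm10), plus strand. In this and the following sequences capitals mark matches, on either strand, to the SOX core (CATTGT or CTTTGT, also with a preceding C), an ETS core (CCGGAAG), an ETS1-type word (ACAGGAAG), a forkhead core (GTAAACA) or the E-boxes CAGCTG and CATATG. None of these words occurred in it.
Sox5, intron, 725 kb from the 5′ end: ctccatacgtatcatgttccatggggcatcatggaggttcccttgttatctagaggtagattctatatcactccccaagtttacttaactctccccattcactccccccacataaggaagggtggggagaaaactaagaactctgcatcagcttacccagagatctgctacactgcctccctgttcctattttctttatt

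Sox6 had sites at 3 of its starts. The strongest was at an internal protein-coding start, 213.6 kb into the gene, with folds of 13.3 and 17.4. The site at the 5′ end had 9.72 and 9.53, covered the start of the divergent neighbour 1110004F10Rik as well, and peaked on the side of the neighbour, 1.27 kb upstream of the Sox6 5′ end. A weaker site at 8.47 kb (6.63 and 7.56) touched a protein-coding start of Sox6 and the start of the antisense transcript Sox6os, and its summits were 2014 bp apart in the replicates. The window around the summits of the internal start, in an intron upstream of that start (chr7:115825101-115825300, plus strand), held 1 SOX core preceded by a C, on the minus strand.
Sox6, internal start: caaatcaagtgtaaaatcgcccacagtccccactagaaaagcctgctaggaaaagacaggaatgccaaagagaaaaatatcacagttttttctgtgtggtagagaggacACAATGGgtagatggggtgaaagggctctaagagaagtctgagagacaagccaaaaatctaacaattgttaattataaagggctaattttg

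Away from starts, Sox6 had 10 distal sites, more than any other of the 6 genes, and 8 of them were in its introns. Some of these stretches shared a replicate 2 peak with a neighbour. Counted once, they no longer gave Sox6 more distal sites than Sox10 (7). The strongest distal site of Sox6 had folds of 18.6 and 24.3, with counting intervals of 13.4 to 25.0 and 19.1 to 30.5. It stood at the 96.5th percentile of distal sites. It spanned chr7:115665875-115670251, 369 kb into the gene, and its summits in the replicates were 22 bp apart. A stretch nearer the 5′ end, 368 kb into the gene (6.19 and 24.3), shared the replicate 2 peak with it, and this was the only site of the 38 whose counting intervals did not overlap between replicates. The next sites by lower fold were at 308 kb (9.72 and 11.2) and past the 3′ end of the gene, 668 kb from its 5′ end (9.28 and 14.8). The 200 bases around the strongest intronic summit, chr7:115669548-115669747 on the plus strand, held none of the words searched.
Sox6, intron, 369 kb from the 5′ end: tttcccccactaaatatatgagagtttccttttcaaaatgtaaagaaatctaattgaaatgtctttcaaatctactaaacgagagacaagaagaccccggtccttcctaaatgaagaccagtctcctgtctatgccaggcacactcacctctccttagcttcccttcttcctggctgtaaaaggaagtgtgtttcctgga

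Sox13 had 1 promoter site and 1 distal site above the minimum. The promoter site (7.51 and 7.88) was centred in an intron 1.53 kb downstream of the 5′ end. The distal site lay 68.0 kb upstream between genes, with folds of 8.39 and 9.53, at the 59.3rd percentile of distal sites. Another upstream site, at 9.97 kb, had 5.74 in replicate 1 and 9.20 in replicate 2 and so failed in replicate 1 alone. Replicate 2 listed 15 peaks in the region and replicate 1 only 8, the largest relative gap among the SOXD genes. Sites at the starts of the neighbours Etnk2, an ethanolamine kinase (5.30 and 7.23), and Kiss1, the kisspeptin precursor (4.86 and 4.60), did not pass the minimum. The distal window (chr1:133492304-133492503, plus strand) had 1 SOX core on the minus strand, directly after a run of CA repeats.
Sox13, 68.0 kb upstream: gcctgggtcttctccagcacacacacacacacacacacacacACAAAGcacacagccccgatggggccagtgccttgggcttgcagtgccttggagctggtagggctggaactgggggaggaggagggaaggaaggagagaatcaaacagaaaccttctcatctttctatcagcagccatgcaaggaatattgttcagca

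Sox8 had no site of its own above the minimum. The single site counted in its region was at the start of Lmf1, a neighbour that encodes a lipase maturation factor, 8.61 kb upstream of Sox8, with folds of 14.1 and 14.5. Before the minimum, Sox8 had its promoter site and 5 distal sites, whose lower folds ran from 3.61 to 5.26. These 5 amounted to 24.4 distal sites per Mb, at percentile 91.5 of all protein-coding genes, whose median was 4.63. After the minimum Sox8 had 0 distal sites, as did the median gene.

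Sox9 had the fewest sites before the minimum, 3, and 2 of them passed it. Beyond the promoter, a site 29.3 kb downstream of the 5′ end, between genes, had folds of 7.51 and 9.20. It stood at the 45.0th percentile of distal sites, and its summits were 22 bp apart. The third stretch, 2.01 kb upstream of the start, was a separate peak with a fold of 4.86 in replicate 1, whereas in replicate 2 it was part of the broad promoter peak (11.5). The remaining 100 kb upstream of Sox9 held no peak in either replicate. The window of the downstream site (chr11:112811402-112811601, plus strand) held 1 CAGCTG E-box and no SOX core.
Sox9, 29.3 kb downstream: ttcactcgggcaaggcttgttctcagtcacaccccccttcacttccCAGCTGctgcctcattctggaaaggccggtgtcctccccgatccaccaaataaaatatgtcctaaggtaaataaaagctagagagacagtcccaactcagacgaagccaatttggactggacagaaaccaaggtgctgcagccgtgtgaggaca

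Sox10 combined its promoter site with the densest set of distal sites. The strongest of all 38 sites was 37.1 kb upstream, with folds of 22.5 and 34.8 (intervals 16.8 to 29.6 and 28.5 to 42.1). A site 27.8 kb upstream had 22.1 and 26.0 (intervals 16.5 to 29.1 and 20.6 to 32.3). Both exceeded the Sox10 promoter in each replicate, both stood at the 97.8th percentile or above of all distal sites (97.8 and 97.9), and their summits were 43 and 9 bp apart between replicates. Their intervals overlapped those of each other in both replicates. In replicate 2 the interval of the site at 37.1 kb lay wholly above that of the promoter, whereas in replicate 1 they overlapped.

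The Sox10 site 27.8 kb upstream held the most matches of the windows shown. Its 200 bases (chr15:79192972-79193171, plus strand) contained 2 SOX cores, 1 of them preceded by a C, and 1 CAGCTG E-box. The stronger site at 37.1 kb (chr15:79202262-79202461, plus strand) contained none of the words.
Sox10, 27.8 kb upstream: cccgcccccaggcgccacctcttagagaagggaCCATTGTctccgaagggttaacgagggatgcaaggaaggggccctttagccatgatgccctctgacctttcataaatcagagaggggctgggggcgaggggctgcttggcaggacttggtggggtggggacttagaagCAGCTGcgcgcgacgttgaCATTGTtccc
Sox10, 37.1 kb upstream: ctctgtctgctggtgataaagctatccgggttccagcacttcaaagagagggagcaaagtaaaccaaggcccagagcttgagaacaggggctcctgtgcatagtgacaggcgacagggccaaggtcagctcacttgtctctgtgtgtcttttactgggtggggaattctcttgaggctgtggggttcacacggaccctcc

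Further upstream, Sox10 had distal sites at 47.7 kb (11.5 and 13.5), 59.4 kb (7.95 and 7.23) and, in an intron of Pick1, 78.3 kb (7.51 and 6.57). Downstream, a site 12.9 kb from the 5′ end lay past the end of the gene, at a noncoding start of Polr2f, with 10.6 and 14.8, and another 63.3 kb from it had 11.0 and 11.5. Starts of neighbouring genes held the other 5 sites. They included Ankrd54 (9.72 and 12.2), the translation initiation factor subunit Eif3l (9.28 and 10.8), Pick1 with Gm49486 (11.0 and 9.53), and Polr2f with 1700088E04Rik, where 2 stretches shared a replicate 2 peak (13.7 and 13.5, and 8.39 and 13.5). The start of Micall1 had 11.5 in replicate 1 and 5.91 in replicate 2. Inside Sox10 itself, 2 intronic stretches had folds of 4.86 or less in replicate 1. No site beyond the promoter was centred in the gene body after the minimum, although the stretch at 12.9 kb reached into its 3′ end.

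Per length of region, distal sites above the minimum were densest at Sox10, with 33.3 per Mb (99.8th percentile of all protein-coding genes), followed by Sox6 with 13.0 (95.6th). Sox5 had 5.20 (86.1st), Sox9 4.87 (82.3rd) and Sox13 4.13 (71.5th) per Mb. For Sox9 and Sox13 these densities stood for 1 site each. The Sox6 density counted stretches that share a peak separately and would be lower otherwise. The 6 regions pooled had 8.98 distal sites per Mb, beside 1.56 over the whole genome. The median gene, a per-gene measure rather than a pooled one, had 0. Over all sites above the minimum, promoter sites included, the contrast was weaker. The pooled regions had 13.6 per Mb, the genome 4.45 and the median gene 8.68. On that count Sox10 stood at percentile 99.6 and Sox6 at 75.3, but Sox9 at 56.7, Sox13 at 48.4, Sox5 at 43.6 and Sox8 at 41.1. Sox10 is not alone in this density, because the regions of its neighbours overlap its own. Polr2f had 33.2 and Pick1 27.2 distal sites per Mb.

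For Sox10 and Sox6 the wider surroundings were sparser than the region. The 1 Mb on each side of the Sox10 region held 7.50 distal sites per Mb, and chromosome 15 as a whole 2.72. Around Sox6 the flanks had 2.00 per Mb and chromosome 7 had 1.24, against 13.0 within the region. For Sox5, Sox9 and Sox13 the flanks (5.50, 6.50 and 6.00 per Mb) were above the density of the regions themselves, and for Sox8 they had 3 per Mb against 0. The median peak fold on chromosome 7 was 1.08 and 1.27 times that of its library in replicates 1 and 2, and on chromosome 15 it was 1.00 and 0.933 times. Dividing each fold by the level of its chromosome left 37 sites and the same 4 genes. Copy number and chromatin accessibility were not measured in these lists, and their part in the densities was not tested.

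**Figure D3:**
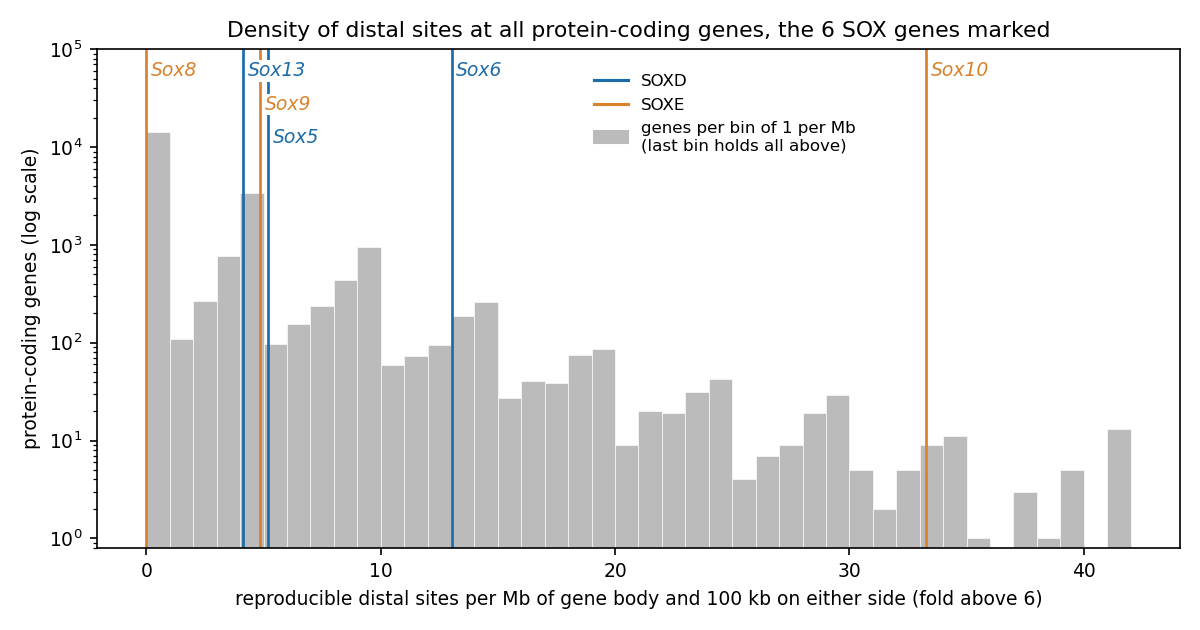
Number of protein-coding genes (y axis, log scale) by reproducible distal sites per Mb of gene body and 100 kb on either side (x axis, bins of 1 per Mb, the last bin holding all higher values), with a line at each of the 6 genes. Sox10 (33.3) and Sox6 (13.0) lie in the sparse right part, Sox5, Sox9 and Sox13 between 4 and 6, and Sox8 at 0.

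Replicate 2 tended to have the higher folds, at 32 of the 38 sites (84.2%) compared with 75.2% of all reproducible sites above the minimum. The 6 sites with the higher fold in replicate 1 were 2 at Sox6, its 5′ end among them, and 4 at Sox10, including the 3 farthest upstream. The rank correlation of the folds of the replicates was 0.653 over the 38 sites and 0.765 over all 12131, and points that share a peak are not independent. At 37 of the 38 sites the counting intervals of the replicates overlapped.

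A SOX core occurred in the 200 bp window of 7 of the 25 distal sites (28.0%), beside 30.1% of all 4250 distal sites, and in 3 of the 13 sites at starts (23.1%), beside 13.9% of all 7881 promoter sites. The 7 distal windows belonged to Sox10 (3), Sox6 (2), Sox5 (1) and Sox13 (1). A core preceded by a C was found in 3 distal windows (12.0%, beside 9.46%) and at 2 of the 13 sites at starts (15.4%, beside 4.80%). The E-box CAGCTG was found in 3 distal windows (12.0%, beside 14.0%) and at 2 sites at starts (15.4%, beside 9.99%). An ETS core was found at 1 site at a start (7.69%, beside 7.51%), that of Eif3l, and at 0 of the 25 distal sites (beside 1.81%). The ETS1-type word, the forkhead core, CATATG and inverted pairs of SOX cores with 3 to 5 bases between them did not occur in any of the 38 windows. At all distal sites they occurred in 2.87%, 2.78%, 3.86% and 0.165%, and at all promoter sites in 1.46%, 1.46%, 0.799% and 0.0127%. With so few windows these shares are descriptions, and no match says only that these letters were not in the window.

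Base composition followed the kind of site. The median GC content was 46.0% in the windows of the 25 distal sites (48.0% for all distal sites) and 59.0% in those of the 13 sites at starts (62.0% for all promoter sites). Among the promoter windows of RefSeq (GRCm38.p6, 250 bases before to 50 after each start), 9 belonged to 4 of the genes, Sox5, Sox6 (6 windows), Sox8 and Sox13. Entries for Sox9 and Sox10 were not used here. A SOX core was present in 6 of the 9, all at Sox5 or Sox6, compared with 28.6% of all 32851 windows. Most of these were windows of Sox6 alone, which are not independent, and the comparison was not matched for GC content. The window at the bound internal start of Sox6 held 3 SOX cores and the window at the 5′-most start 1. The windows of Sox8 and Sox13, both with a GC content of at least 66.3%, held none.

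The other SOX genes give a frame for these levels. Of 13 genes of the B, C, F, G and H groups, 6 had a promoter site before the minimum and 5 after it, beside the 51% and 39.6% of all genes. The SOXC genes Sox4, Sox11 and Sox12, which act in neuronal differentiation, all had one, with folds of 18.1 and 20.4, 16.3 and 18.7, and 18.6 and 20.0. Each SOXC promoter had a higher value in both replicates than that of Sox10, but all of these values lay inside the counting intervals of Sox10 (9.75 to 19.9 and 13.7 to 23.5). Sox2 (11.0 and 19.7) and Sox21 (11.5 and 12.2), both SOXB genes of neural progenitors, were the others. No SOXF gene had a promoter site. For distal sites above the minimum, 5 of the 13 genes had at least 1, beside 34.6% of all genes. They had 1 to 3 sites each, against 6 for Sox5, 7 for Sox10 and 10 for Sox6, whose regions differ in length. Sox6 did not exceed Sox10 where stretches that share a peak were counted once. Per Mb, Sox2 (14.8) and Sox12 (14.7) exceeded Sox6 (13.0), and Sox30 (12.6) and Sox4 (9.77) exceeded Sox5 (5.20). Sox10 (33.3) remained the highest of all 19 SOX genes. The Sox6 value includes stretches that share a peak, and its place above Sox30 and Sox4 may depend on counting them separately.

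**Figure D4:**
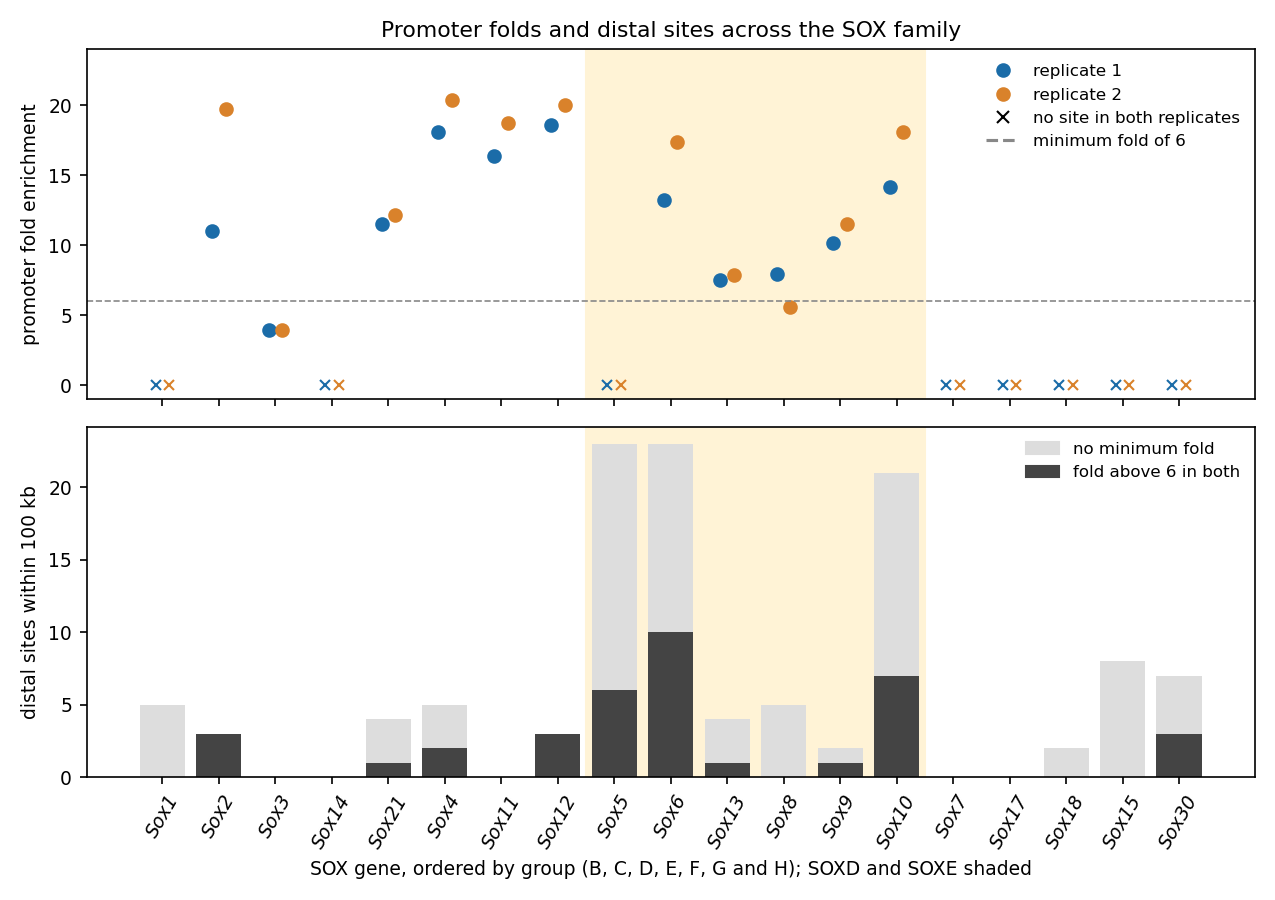
Upper panel, highest promoter fold enrichment of each SOX gene in replicate 1 (blue) and replicate 2 (orange), with crosses at 0 where no site was shared and a dashed line at 6. Lower panel, number of distal sites within 100 kb before (light bars) and after (dark bars) the minimum. In replicate 1 the SOXC promoters are the highest, and Sox5, Sox6 and Sox10 (SOXD and SOXE shaded) have the most distal sites, in regions of unequal length.

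A list of 27 genes known to be bound or regulated by SOXD or SOXE factors was examined in the same way. It covers myelin, oligodendrocyte precursor, Schwann cell, melanocyte and cartilage genes. Promoter sites were present at 18 of the 27 before and 13 after the minimum, and distal sites within 100 kb at 24 and 17, to be read against the shares of all genes above (51% and 39.6%, 61.1% and 34.6%). The highest lower promoter folds belonged to Erbb3 (11.0 and 14.8), a neuregulin receptor of Schwann cells, Cnp (10.6 and 15.8), a myelin enzyme, and the oligodendrocyte regulators Olig2 (9.72 and 15.1) and Nkx2-2 (9.72 and 11.8), followed by the glial regulator Nfia (9.28 and 12.2). Of the cartilage genes, Col2a1 (8.84 and 10.8) and Col11a2 (8.39 and 7.88) passed the minimum, Hapln1 (3.98 and 7.23) did not, and Acan and Matn1 had no promoter site. Of the myelin genes, Mag, Mog and Mobp had no promoter site in both replicates. The median lower promoter fold over the 18 genes was 8.30, and over all genes with a site it was 8.84.

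The gene nearest to each SOX gene in its promoter folds and number of distal sites was looked up among 11179 genes with a promoter site, by Euclidean distance on log2 values. For Sox10 it was Actg1, with folds of 14.1 and 17.4 and 7 distal sites (distance 0.05). For Sox6 it was Mrps23, with 12.4 and 18.1 and 9 distal sites (0.18). Sox9, Sox13 and Sox8 had 6, 9 and 7 genes tied at a distance of 0, of which the first by name were Eif2b1, Cdc37 and Acsl4. Few fragments stood behind each fold, and ties were common.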

How the data were processed

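CUT&RUN against the V5 tag was measured in 2 replicates of the Foxr2 p53LOF line and 2 of the V5 control, grouped by their titles. Per the methods and the submitters' processing notes, reads were trimmed with Trimmomatic 0.39, aligned to mm10 with BWA 0.7.17, freed of duplicates with Picard 2.26.6 and turned into peaks with MACS2 2.2.7.1 for each library alone. The notes also name HOMER 4.11, and no input library is named. In the deposited lists the fold enrichment is a ratio that the authors obtained from MACS2, fragments at the summit plus 1 over the background plus 1. MACS2, run by the authors, also gave each peak a deposited −log10 of its p-value and of its q-value, and a score that is 10 times the latter without decimals. The summit offset in bp was deposited as well.

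The depth of a library is not in these lists. Fragments at each summit were recovered from the folds (100% whole within 0.02 up to a fold of 30) and gave exact 95% Poisson intervals, which cover counting error only. Over all peaks of a list the median fold was 5.30 (replicate 1) and 4.93 (replicate 2) for Foxr2 p53LOF, compared with 6.68 and 14.9 for the controls. No region held a control peak, and no peak above the minimum in the regions reached 10000 bp or fell to a −log10 q of 6, so the filter of the methods on control overlap, q, fold and length gave the same 38 sites. The methods then keep regions that are also peaks of single-nucleus ATAC-seq, a step not used here.

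Positions are in GRCm38 (mm10), counted from 1, with GENCODE M21 genes. Sites needed 1 bp of overlap between replicates. The centre of a site is the mean of the summits that lie in the stretch, or its middle where neither does, and motif windows of 200 bp were placed there. Percentiles count genes or sites of the same kind at or below a value, with ties split for genes. Python 3.11.15, numpy 2.4.6, scipy 1.17.1 and matplotlib 3.10.9 were used. Finding the background, shared stretches and start classes were each tested on simulated data, with 100% recovered.

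The genes named are the 6 members, neighbours with a site at their start, the nearest gene in pattern, and genes from 2 lists, other SOX genes and 27 known targets. Mag, Mog, Mobp, Col2a1, Col11a2, Hapln1, Acan, Matn1 and Sox30 were named after their values were seen. Members, lists and tests were chosen with earlier results of these data known. Alternatives covered the minimum fold, overlap, promoter window, region size, chromosome level, the replicate block and leaving out each replicate. Those chosen after seeing the data were the crossed replicate block, leaving out single libraries for the peak count, and counting stretches that share a peak once.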

Additional observations from a re-analysis of the deposited data

How the results depend on the processing

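The number of reproducible sites and of distal sites depended most on the minimum fold. A minimum of 4 gave 76 sites and 59 distal sites, a minimum of 10 gave 11 and 6, and no minimum gave 95 and 78 (81 and 65 when stretches that share a peak were counted once). Regions of 10 kb on either side held 23 and 16. All other alternatives kept both counts within 1.5 times of 38 and 25, and 17 distal sites were left where each peak had to be covered by at least 50%. Leaving out a replicate gave 43 to 45 sites, 29 to 30 distal sites and 4 to 5 genes with a promoter site. That gene count was 3 to 5 under every alternative run, with Sox6, Sox9 and Sox10 in each, Sox8 added at a minimum of 4, without a minimum or without replicate 2, Sox5 added with the 5′ end of the gene as its start, and Sox13 lost at a minimum of 10. Without one library, the difference in peaks per library was 117 to 127, and with the minimum it was 44. The replicate block gave the same difference of 122 (exact p = 0.5, the smallest possible). Same-numbered libraries correlated at −0.111 over 21 chromosomes, and the crossed replicate block, added after seeing the data, also gave 122. No source says that the numbers pair the libraries. Depth limits single sites, since a fold just above the minimum rests on 13 to 18 fragments and its interval spans 6.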
